A study of Homo sapiens with 6 samples.

Results

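A set of 10 human aldehyde dehydrogenases outside the ALDH1A group were examined in SZ95 sebocytes, an oil-producing cell line of the human sebaceous gland immortalized with the SV40 large T antigen, after exposure to fine particulate matter (PM2.5). The members were the rows of the read count table whose gene symbol was ALDH3A1, ALDH3A2, ALDH3B1, ALDH3B2, ALDH1L1, ALDH1L2, ALDH2, ALDH5A1, ALDH6A1 or ALDH18A1. These were 10 of the 19 aldehyde dehydrogenase genes in the table and 10 of its 27685 genes, and all 10 passed the filter on low counts that left 16049 genes for testing. They were named with the result of this contrast in view, so their changes are given as a description, without p-values. SZ95 cells received PM2.5 at 100 μg/mL for 24 h, and control SZ95 cells received the 20% ethanol in which the particles were suspended, also for 24 h. Both groups were kept during the exposure in a medium for which no serum or growth factor was listed, and no other difference between them was stated. RNA-seq was available for 3 PM2.5-treated and 3 control libraries. All 6 came from a single cell line, and nothing in the labels says that they were separate cultures, so the spread between libraries may be technical, and the p-values given for genes outside the described group measure that spread alone.

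Aldehyde dehydrogenases use NAD or NADP to oxidize aldehydes to acids. Aldehydes arise from lipid peroxidation, from the turnover of alcohols, fatty alcohols and sphingolipids, and from the breakdown of amino acids, and many of them react with proteins and DNA. In a sebocyte, a cell that makes and stores large amounts of lipid including wax esters, the members with fatty or lipid-derived aldehydes as substrates (ALDH3 family) lie next to lipid metabolism, while those of the mitochondrion serve acetaldehyde, GABA, valine and proline metabolism. ALDH1L1 and ALDH1L2 belong to folate metabolism, and ALDH18A1 is a biosynthetic enzyme that runs in the opposite chemical direction.

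The libraries held between 56460553 and 71080000 counted reads with PM2.5 and between 62537562 and 70616698 reads in control, with 18253 to 18623 genes detected per library. Libraries of the same group differed from each other by more than sampling noise. Genes were called by edgeR's quasi-likelihood test at a Benjamini-Hochberg adjusted p under 0.05. The 7 classical targets of the aryl hydrocarbon receptor (AHR), the sensor of polycyclic aromatic compounds, were all higher, with CYP1A1 at 560.1 ± 32.0 CPM in PM2.5-treated cells and 3.56 ± 0.676 CPM in control cells (SD, n = 3 each; edgeR adjusted p = 7.16e-08). Levels throughout are CPM, a gene's reads relative to the library's total with that total scaled by TMM factors, and changes are log2 ratios of PM2.5 over control with the standard error (SE) of the edgeR fit.

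Of the 10 aldehyde dehydrogenases, 9 were higher and 1, ALDH18A1, was lower in PM2.5-treated cells by that test, which called 43.6% of all tested genes, 21.7% higher and 22.0% lower. ALDH3A1 and ALDH1L1 were more than 2-fold higher, ALDH3B1, ALDH3B2 and ALDH6A1 lay between 1.56-fold and 1.85-fold, and the other 4 risers between 1.19-fold and 1.37-fold. The 9 risers had all 3 PM2.5 libraries above all 3 control libraries, and ALDH18A1 had all 3 below. The background for such separation of the groups was 28.1% of tested genes in each direction and 56.3% in all. For a rise of more than 2-fold that also passed the adjusted threshold it was 3.01%. The median log2 change of the 10 genes was 0.55, against 0.00 over all tested genes. Because the genes were picked from this same contrast, nothing is read from these shares. In bulk RNA, fewer cells of a type and less RNA per cell cannot be told apart.

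**Figure D1:**
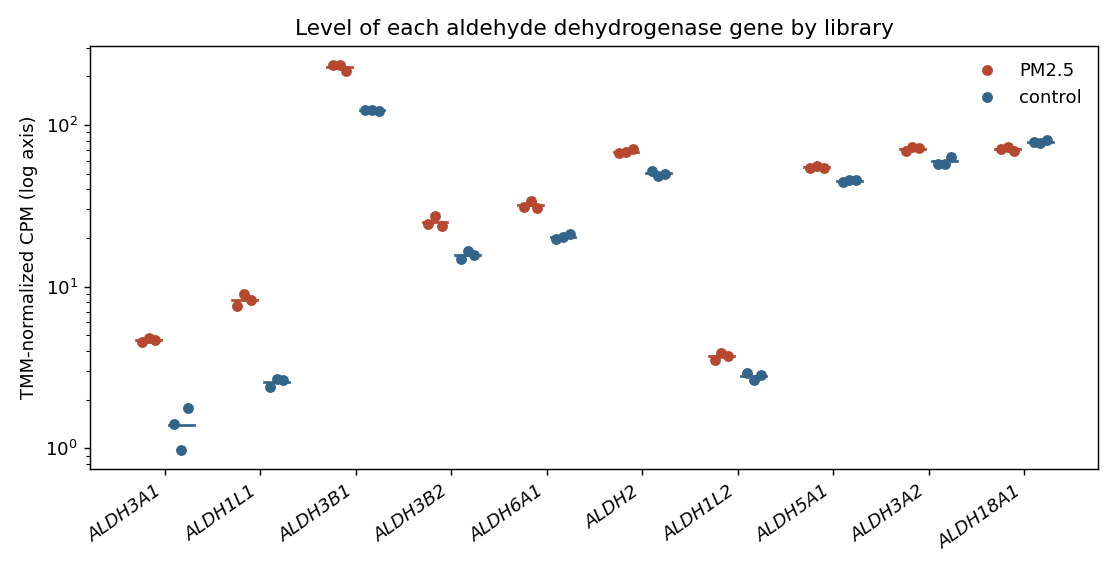
TMM-normalized CPM of the 10 aldehyde dehydrogenase genes on a log axis, with 1 point per library, PM2.5 left of control, and a bar at the mean of 3. Genes run by log2 change, with ALDH3A1 at 4.57 to 4.79 CPM with PM2.5 and 0.974 to 1.76 CPM in control at the left and ALDH18A1, the single gene below its control, at the right.

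Among the ALDH3 enzymes, ALDH3A1 had the largest change. It encodes the cytosolic and nuclear enzyme of cornea and other surface epithelia that oxidizes aromatic and medium-chain aldehydes, and it is a known AHR target in liver cell lines and rodents. Its level was 4.57, 4.79 and 4.67 CPM in the PM2.5 libraries and 1.41, 0.974 and 1.76 CPM in the control libraries. The PM2.5 libraries were nearly equal, with a coefficient of variation of 2.35%, whereas the control libraries varied by 28.6%. These levels rest on few reads, 279, 353 and 269 with PM2.5 and 86, 61 and 120 in control. The log2 change was 1.75 (SE 0.174), or 3.36-fold, and it was 1.55 without control replicate 2 and 1.97 without control replicate 3.

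ALDH3A2 encodes the membrane-bound fatty aldehyde dehydrogenase of the endoplasmic reticulum, which oxidizes long-chain aldehydes from fatty alcohols, ether lipids and sphingosine 1-phosphate. It was far more abundant than ALDH3A1 and changed far less. It measured 68.6, 73.2 and 71.7 CPM with PM2.5 and 57.2, 57.7 and 63.7 CPM in control, a log2 change of 0.26 (SE 0.0576). The groups did not overlap, and control replicate 3 came closest to the PM2.5 libraries. The longest stretch of identical sequence between ALDH3A1 and ALDH3A2 transcripts was 14 bases.

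ALDH3B1 and ALDH3B2 are neighbouring paralogs on chromosome 11, and their enzymes are attached to membranes, in the case of mouse Aldh3b2 those of lipid droplets, and act on medium- and long-chain aldehydes. ALDH3B1 was the most abundant of the 10 genes. It reached 234.4, 234.5 and 214.8 CPM with PM2.5, while the control libraries were 123.7, 123.0 and 122.6 CPM. The control values were almost the same in all 3 libraries, and PM2.5 replicate 3 was the lowest of its group, still far above them. Its log2 change was 0.89 (SE 0.0486). ALDH3B2 was at 24.5, 27.3 and 23.8 CPM with PM2.5 and at 14.9, 16.6 and 15.7 CPM in control, a log2 change of 0.68 (SE 0.0749). Both genes were higher in each PM2.5 library than in any control library.

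The transcripts of the 2 ALDH3B genes share a longest identical run of 64 bases, printed here because reads falling inside it cannot be assigned to either gene. Both copies lie in coding exon 7, ALDH3B1 at chr11:68021697-68021784 on the plus strand and ALDH3B2 at chr11:67665372-67665459 on the minus strand (GRCh38, GENCODE v29). Capitals mark the shared run, with 12 bases of flank on each side.
ALDH3B1: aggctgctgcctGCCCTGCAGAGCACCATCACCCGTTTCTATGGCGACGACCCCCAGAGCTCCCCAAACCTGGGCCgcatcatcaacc
ALDH3B2: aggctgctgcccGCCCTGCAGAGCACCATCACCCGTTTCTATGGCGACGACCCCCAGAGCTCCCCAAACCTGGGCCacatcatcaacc
Of all 50-base words in their transcripts, 1.19% of those of ALDH3B1 and 1.35% of those of ALDH3B2 occurred in the other gene. The share was small, but ALDH3B1 had many more reads. It had 14309 reads against 1497 for ALDH3B2 in PM2.5 replicate 1, and 7535 against 907 in control replicate 1. How the authors' counting treated such reads is not given in the sources used here. The level of ALDH3B2, the less abundant copy, is therefore less certain than its small share of common words implies.

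The aldehydes that ALDH3A2 and the ALDH3B enzymes receive come from fatty alcohol, ether lipid and sphingosine phosphate metabolism. Of 17 listed genes of these routes 14 were tested, and 4 were higher, 4 were lower and 6 did not pass, with a median log2 change of 0.01. For this list and those below, the shares over all tested genes were 21.7% higher and 22.0% lower. PHYH, which starts the alpha-oxidation of phytanic acid, was at 20.3 ± 1.17 CPM with PM2.5 and 14.4 ± 0.338 CPM in control (adjusted p = 0.000784). ACSL3, a long-chain acyl-CoA synthetase of lipid droplets, was at 185.3 ± 3.90 CPM with PM2.5 and 128.6 ± 16.6 CPM in control (adjusted p = 0.00212), and SGPP2, a sphingosine phosphate phosphatase, at 3.56 ± 0.321 CPM with PM2.5 and 2.18 ± 0.516 CPM in control (adjusted p = 0.0108). In the other direction, SGPL1, the lyase that splits sphingosine 1-phosphate and releases hexadecenal, a substrate of ALDH3A2, was at 96.9 ± 11.1 CPM with PM2.5 and 157.3 ± 12.6 CPM in control (adjusted p = 0.000695). SGPP1, the related phosphatase, was at 73.2 ± 0.600 CPM with PM2.5 and 88.2 ± 5.89 CPM in control (adjusted p = 0.00632). Thus the lyase and the dehydrogenase that follows it moved in opposite directions. FAR1 and FAR2, which make the fatty alcohols of wax esters and ether lipids, did not pass, FAR1 at 65.1 ± 3.58 CPM with PM2.5 and 60.8 ± 9.90 CPM in control (adjusted p = 0.498) and FAR2 at 15.1 ± 1.10 CPM with PM2.5 and 15.1 ± 0.369 CPM in control (adjusted p = 0.971). AGMO, AWAT1 and AWAT2 had no reads in any library. The count of lower genes fell to 2 when PM2.5 replicate 1 or 2 or control replicate 1 or 3 was left out.

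Of 20 other enzymes that clear reactive aldehydes and carbonyls, 11 were higher, 0 were lower and 9 did not pass by edgeR, with 1 lower at an unadjusted p under 0.05, 1 lower by DESeq2, 0 lower by limma-voom and a median log2 change of 0.34. XDH, xanthine dehydrogenase, was at 80.4 ± 5.87 CPM with PM2.5 and 46.8 ± 1.53 CPM in control (adjusted p = 0.000113). PTGR1, which reduces leukotrienes and lipid-derived alkenals, was at 62.3 ± 3.47 CPM with PM2.5 and 41.0 ± 1.15 CPM in control (adjusted p = 0.000203), and HAGH, the last enzyme of the glyoxalase route, at 73.8 ± 1.98 CPM with PM2.5 and 52.2 ± 2.49 CPM in control (adjusted p = 0.000294). The gene lower at an unadjusted p under 0.05 was AOX1, aldehyde oxidase. It was at 1.41 ± 0.192 CPM with PM2.5 and 2.28 ± 0.707 CPM in control (adjusted p = 0.0510). Among 13 listed targets of NRF2, the oxidant-responsive factor, 9 were higher, 1 was lower and 3 did not pass, with a median of 0.52. NQO1, which was higher, is counted in both this list and the AHR list. TKT, transketolase, and ME1, the cytosolic malic enzyme, had log2 changes of 0.67 (SE 0.0449) and 0.91 (SE 0.0750), with adjusted p of 5.40e-05 and 0.000123. TALDO1, transaldolase, had a log2 change of -0.21 (adjusted p = 0.0112), which did not pass with library size scaling (adjusted p = 0.0516). HMOX1, heme oxygenase, did not pass, at 14.1 ± 0.711 CPM with PM2.5 and 14.2 ± 1.69 CPM in control (adjusted p = 0.960). For the AHR list the median was 2.62, and CYP1B1 and UGT1A6 followed CYP1A1 with log2 changes of 4.57 (SE 0.0670, adjusted p = 3.02e-08) and 2.62 (SE 0.0875, adjusted p = 5.66e-06). UGT1A6 shares exons with the other UGT1A genes, so its level is uncertain.

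ALDH1L1 and ALDH1L2 oxidize 10-formyltetrahydrofolate to tetrahydrofolate and carbon dioxide, ALDH1L1 in the cytosol and ALDH1L2 in the mitochondrion. ALDH1L1 was at 7.58, 9.01 and 8.24 CPM in the PM2.5 libraries, against 2.40, 2.70 and 2.66 CPM in the control libraries. This was a log2 change of 1.68 (SE 0.102), or 3.20-fold, on 463, 664 and 475 reads with PM2.5 and 146, 169 and 181 reads in control. ALDH1L2 measured 3.52, 3.88 and 3.73 CPM with PM2.5 and 2.91, 2.65 and 2.85 CPM in control, a log2 change of 0.41 (SE 0.0974). The groups did not overlap here either, and the gap between them was larger than the range within either. The cytosolic gene thus changed much more than its mitochondrial relative. Within each library, the ratio of ALDH1L1 to ALDH1L2 in CPM per kilobase of transcript (RPKM, from the median length of the matched transcripts) was 5.44 to 5.86 with PM2.5 and 2.08 to 2.57 in control. The corresponding ratio of ALDH3A1 to ALDH3A2 was 0.136 to 0.139 with PM2.5 and 0.0352 to 0.0578 in control, whereas that of ALDH3B1 to ALDH3B2 was 10.4 to 11.6 with PM2.5 and 8.99 to 10.1 in control. The first 2 ratios shifted by more than 2-fold, and the ALDH3B pair kept closer to its control ratio.

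**Figure D2:**
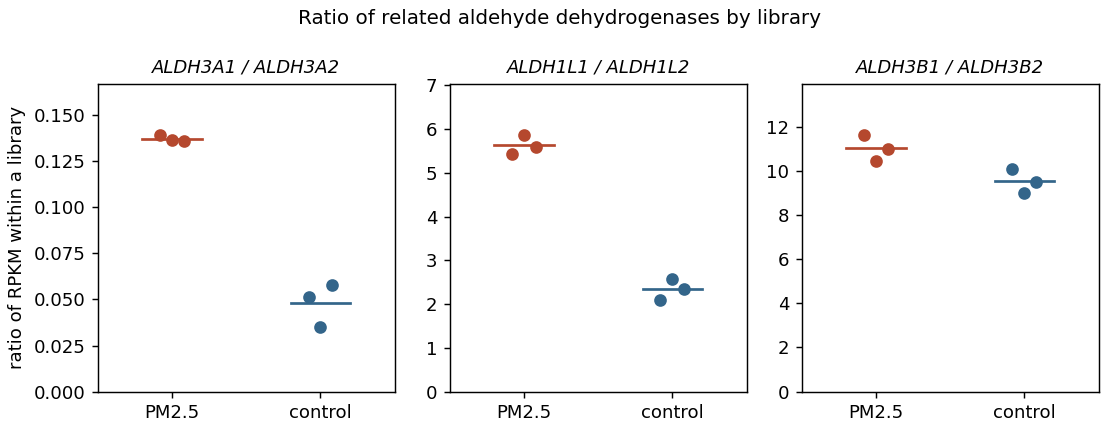
Ratio of the RPKM of 2 related genes within each library, PM2.5 left of control, with a bar at the mean of 3 and axes starting at 0. The ALDH1L1 to ALDH1L2 ratio was 5.44 to 5.86 with PM2.5 and 2.08 to 2.57 in control, and the ALDH3B1 to ALDH3B2 ratio was 10.4 to 11.6 with PM2.5 and 8.99 to 10.1 in control.

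Of 24 other tested genes of folate one-carbon metabolism, 5 were higher, 6 were lower and 13 did not pass. Over all tested genes 21.7% were higher and 22.0% lower. The median log2 change of the folate list was 0.02, and with library size scaling its split was 10 higher and 3 lower. AMT, the aminomethyltransferase of the glycine cleavage system, was at 9.48 ± 0.587 CPM with PM2.5 and 6.58 ± 0.537 CPM in control (adjusted p = 0.00244), and MTR, methionine synthase, at 49.3 ± 2.35 CPM with PM2.5 and 40.5 ± 1.18 CPM in control (adjusted p = 0.00410). GART, which uses 10-formyltetrahydrofolate in purine synthesis, was at 71.9 ± 2.83 CPM with PM2.5 and 89.4 ± 2.31 CPM in control (adjusted p = 0.00160). MTHFD2, the mitochondrial methylenetetrahydrofolate dehydrogenase, was at 70.1 ± 2.07 CPM with PM2.5 and 83.4 ± 4.95 CPM in control (adjusted p = 0.00850), and GCSH, the lipoyl carrier of glycine cleavage, at 32.1 ± 0.843 CPM with PM2.5 and 44.3 ± 7.20 CPM in control (adjusted p = 0.0103). The count of lower genes was 3 without PM2.5 replicate 3 and 3 without control replicate 1, and that of higher genes was 3 without PM2.5 replicate 1 or 3 or control replicate 1 or 2. ALDH1L2 and MTHFD2 are known targets of the amino acid stress factor ATF4. Of a list of 19 genes made up of ATF4 and its targets, 2 were higher, 7 were lower and 10 did not pass, with a median of -0.13. SLC7A5 and SLC3A2, the subunits of an amino acid exchanger, had log2 changes of 0.98 (SE 0.0987, adjusted p = 0.000260) and 0.69 (SE 0.0629, adjusted p = 0.000192). CHAC1, PSAT1 and ATF4 itself had log2 changes of -1.14, -0.63 and -0.45, with adjusted p of 0.000547, 0.00160 and 0.00180. ALDH1L2 was higher in the same libraries in which ATF4 mRNA was lower. Whether ATF4 took part in the change of ALDH1L2 was not tested.

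In the mitochondrial matrix, ALDH2 oxidizes acetaldehyde and lipid peroxidation products such as hydroxynonenal. It measured 66.8, 68.3 and 70.5 CPM with PM2.5 and 52.2, 48.6 and 49.6 CPM in control, a log2 change of 0.45 (SE 0.0499). The gap between the groups was larger than the range within either. Ethanol was the vehicle in both groups, and whether the cells oxidized it was not tested. The classical alcohol dehydrogenases that turn ethanol into acetaldehyde, ADH1A, ADH1B, ADH1C, ADH4, ADH6 and ADH7, had no reads in any library. Of the 3 tested genes of that list 1 was higher, and AKR1A1 and ADH5 did not pass. ADHFE1, a mitochondrial hydroxyacid transhydrogenase, was at 2.44 ± 0.178 CPM with PM2.5 and 1.70 ± 0.141 CPM in control (adjusted p = 0.0102), and ADH5, the glutathione-dependent formaldehyde dehydrogenase, at 94.3 ± 1.93 CPM with PM2.5 and 90.1 ± 3.04 CPM in control (adjusted p = 0.275).

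ALDH5A1, succinate semialdehyde dehydrogenase, carries out the last step of GABA breakdown and delivers succinate to the citric acid cycle. Its levels were 54.2, 55.5 and 54.3 CPM with PM2.5 and 44.3, 45.5 and 45.4 CPM in control. The change was small, with a log2 value of 0.28 (SE 0.0446), but the libraries of a group lay close together and the groups did not overlap. Of 10 listed genes around GABA, 7 were tested, 4 were higher, 0 were lower and 3 did not pass by edgeR, with 0 lower at an unadjusted p under 0.05 and 0 lower by DESeq2 or limma-voom. OGDH, the E1 subunit of the oxoglutarate dehydrogenase complex, was at 184.6 ± 3.23 CPM with PM2.5 and 91.4 ± 1.67 CPM in control (adjusted p = 1.09e-05). SUCLG2 and SUCLG1, subunits of succinyl-CoA ligase, had log2 changes of 0.39 (SE 0.0607, adjusted p = 0.00170) and 0.14 (SE 0.0447, adjusted p = 0.0328), the second lost without PM2.5 replicate 1 or 2 or control replicate 1 or 2 (adjusted p up to 0.0905 over all alternatives). Without PM2.5 replicate 1 or 2 or control replicate 2, the list had 2 higher genes. These genes belong to the citric acid cycle. Those that make or open the route itself did not pass, with GAD1, glutamate decarboxylase, at a log2 change of 0.03 (adjusted p = 0.799) and ABAT, GABA transaminase, at -0.02 (adjusted p = 0.841), and GAD2 had no reads.

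ALDH6A1, methylmalonate semialdehyde dehydrogenase, finishes the breakdown of valine and thymine and yields propionyl-CoA. It had the largest change of the 5 mitochondrial members, at 30.9, 34.0 and 30.5 CPM with PM2.5 and 19.8, 20.3 and 21.1 CPM in control, a log2 change of 0.64 (SE 0.0635). All 3 PM2.5 libraries were above the highest control library, PM2.5 replicate 2 the most. Of 24 genes of branched-chain amino acid and propionate breakdown, 11 were higher, 2 were lower and 11 did not pass, with a median log2 change of 0.21. The 2 subunits of propionyl-CoA carboxylase, the next enzyme after ALDH6A1, were both higher, PCCB at 50.8 ± 2.34 CPM with PM2.5 and 33.5 ± 1.57 CPM in control (adjusted p = 0.000235) and PCCA at 31.6 ± 2.61 CPM with PM2.5 and 22.9 ± 0.685 CPM in control (adjusted p = 0.00149). HIBADH, which supplies the semialdehyde that ALDH6A1 oxidizes, was at 63.2 ± 4.07 CPM with PM2.5 and 51.6 ± 1.09 CPM in control (adjusted p = 0.00486). HIBCH, the step before it, did not pass, at 31.2 ± 0.527 CPM with PM2.5 and 27.1 ± 2.51 CPM in control (adjusted p = 0.0566). Of the same list, ACAD8, ECHS1, MCEE and MUT did not pass either. Their log2 changes were -0.14, -0.03, 0.04 and 0.22 (adjusted p = 0.0891, 0.692, 0.705 and 0.0521). BCAT1, the cytosolic transaminase that opens the pathway, was at 132.0 ± 4.52 CPM with PM2.5 and 287.4 ± 44.7 CPM in control (adjusted p = 0.000200). BCAT2, the other transaminase of that step, went the other way, at 35.4 ± 0.980 CPM with PM2.5 and 30.6 ± 1.86 CPM in control (adjusted p = 0.0241). MCCC2, a subunit of methylcrotonyl-CoA carboxylase, was at 153.4 ± 1.39 CPM with PM2.5 and 173.7 ± 7.34 CPM in control (adjusted p = 0.0147), a call lost with library size scaling and without PM2.5 replicate 1 (adjusted p up to 0.101).

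ALDH18A1, pyrroline-carboxylate synthase, turns glutamate into the precursor of proline and ornithine, and it was the one member that was lower. It measured 70.7, 73.6 and 69.1 CPM in the PM2.5 libraries and 78.1, 77.2 and 81.0 CPM in the control libraries. The groups did not overlap, but the gap between the highest PM2.5 library and the lowest control library was smaller than the range within either group. The log2 change was -0.15 (SE 0.0470), and it lay between -0.16 and -0.07 over the 15 alternatives, negative in each but called in 8. Of 13 tested genes of proline, ornithine and glutamate metabolism, 3 were higher, 4 were lower and 6 did not pass, with a median of -0.07, against 5 higher and 3 lower with library size scaling. Of the reductases that act after ALDH18A1, PYCR3, the cytosolic one, was at 18.7 ± 1.84 CPM with PM2.5 and 28.4 ± 1.66 CPM in control (adjusted p = 0.000982), and PYCR1 was at 25.9 ± 1.71 CPM with PM2.5 and 30.9 ± 1.56 CPM in control (adjusted p = 0.0169). PRODH, proline dehydrogenase, which starts proline breakdown, was at 22.9 ± 1.60 CPM with PM2.5 and 15.4 ± 0.408 CPM in control (adjusted p = 0.000508), and ARG2, the mitochondrial arginase, at 7.57 ± 0.574 CPM with PM2.5 and 4.55 ± 0.0809 CPM in control (adjusted p = 0.000489). SLC7A1, a carrier of cationic amino acids, was at 133.6 ± 3.44 CPM with PM2.5 and 160.3 ± 11.2 CPM in control (adjusted p = 0.00768). GLUL, glutamine synthetase, was at 297.6 ± 30.6 CPM with PM2.5 and 1242 ± 439 CPM in control (adjusted p = 0.000536), with control replicate 3 at 735.1 CPM far below the other two, and its log2 change lay between -2.33 and -1.91 over the alternatives.

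Taken by compartment, the 5 members whose proteins are mitochondrial (ALDH2, ALDH5A1, ALDH6A1, ALDH1L2 and ALDH18A1) had log2 changes of -0.15 to 0.64 with a median of 0.41. The 5 others, which are cytosolic or membrane-bound, ran from 0.26 to 1.75 with a median of 0.89. The ranges overlapped.

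Set in order of level per length, with the control RPKM over the median length of the matched transcripts, ALDH3B1 stood first at 56.5 ± 0.265, followed by ALDH18A1 at 23.5 ± 0.583, ALDH3A2 at 16.1 ± 0.973, ALDH5A1 at 12 ± 0.187, ALDH6A1 at 10.9 ± 0.374, ALDH2 at 9.01 ± 0.336 and ALDH3B2 at 5.94 ± 0.330 (SD, n = 3). The last 3 were near 1 or below it, ALDH1L1 at 0.865 ± 0.0549, ALDH3A1 at 0.779 ± 0.223 and ALDH1L2 at 0.371 ± 0.0178. Neighbours did not overlap across the control libraries except ALDH1L1 and ALDH3A1. With PM2.5 the RPKM of ALDH3B1 was 104.6 ± 5.22, and ALDH6A1 at 17.0 ± 1.02 stood above ALDH5A1 at 14.5 ± 0.192, the reverse of their control order. The ranks depend on which transcript the length is taken from. The control RPKM of ALDH2 was 31.9 with the shortest matched transcript and 5.24 with the longest, and that of ALDH6A1 was 14.8 and 3.71. Summed over the 10 genes the level was 551.3 to 583.9 CPM with PM2.5 and 395.4 to 406.4 CPM in control, and ALDH3B1 alone made up 39.0 to 41.4% of the sum with PM2.5 and 30.2 to 31.2% in control.

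Promoter sequence was read for the members that had entries in the RefSeq promoter table (GRCh38.p14, 250 bases before to 50 after each start), which were 6 of 10 members with 9 windows. The counts were made on hg19, so these coordinates belong to the promoters alone. Each of 5 short motifs was searched on both strands. They were the AHR core GCGTG, found in 36.5% of all 35116 promoters of this length, the antioxidant element core TGACNNNGC (13.3%), the ATF4 element TGATGNAA (3.62%), the E-box CACGTG (7.26%) and the sterol element TCACNCCAC (1.13%). Matches that share letters were each counted. ALDH1L1, the member of these 6 with the largest change, ALDH3B1, the most abundant, ALDH3A2, whose window held the most matches, and ALDH18A1, the one that was lower, are printed 5′ to 3′, with every matched letter in capitals. The windows are chr3:126180537-126180836 (minus strand) for ALDH1L1, chr11:68008297-68008596 (plus) for ALDH3B1, chr17:19648501-19648800 (plus) for ALDH3A2 and chr10:95656662-95656961 (minus) for ALDH18A1.
ALDH1L1: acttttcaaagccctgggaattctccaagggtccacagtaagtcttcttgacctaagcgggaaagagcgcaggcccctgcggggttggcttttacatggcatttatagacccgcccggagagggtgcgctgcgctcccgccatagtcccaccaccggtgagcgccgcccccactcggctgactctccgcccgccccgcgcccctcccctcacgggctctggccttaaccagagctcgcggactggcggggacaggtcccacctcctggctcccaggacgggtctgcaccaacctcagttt
ALDH3B1: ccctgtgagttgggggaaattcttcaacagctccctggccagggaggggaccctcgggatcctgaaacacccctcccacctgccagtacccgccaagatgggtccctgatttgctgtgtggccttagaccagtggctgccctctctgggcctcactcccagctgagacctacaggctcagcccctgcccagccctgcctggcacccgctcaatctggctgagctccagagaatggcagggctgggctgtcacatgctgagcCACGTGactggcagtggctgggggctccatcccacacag
ALDH3A2: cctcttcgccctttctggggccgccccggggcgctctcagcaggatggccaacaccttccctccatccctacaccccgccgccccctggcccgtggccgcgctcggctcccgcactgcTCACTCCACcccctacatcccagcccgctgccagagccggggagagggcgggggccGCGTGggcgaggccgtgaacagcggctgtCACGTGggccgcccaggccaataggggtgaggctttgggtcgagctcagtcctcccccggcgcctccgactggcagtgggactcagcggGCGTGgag
ALDH18A1: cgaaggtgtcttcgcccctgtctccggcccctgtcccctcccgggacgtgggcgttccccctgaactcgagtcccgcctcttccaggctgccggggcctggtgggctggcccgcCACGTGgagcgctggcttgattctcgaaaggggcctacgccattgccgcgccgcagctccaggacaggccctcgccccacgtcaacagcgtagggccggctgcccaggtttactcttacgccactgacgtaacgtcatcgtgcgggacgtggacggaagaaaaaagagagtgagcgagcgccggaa
The printed ALDH3A2 window held 2 AHR cores, 1 E-box and 1 sterol element, the ALDH3B1 and ALDH18A1 windows 1 E-box each, and the ALDH1L1 window none of the 5 motifs. ALDH3A2, ALDH3B1 and ALDH1L1 each had a second window in the table, not printed, with 0 matches to any of the 5 motifs. Besides ALDH3A2, ALDH5A1 alone had an AHR core, with 1 match, and none of the 9 windows held the antioxidant or ATF4 letters. A match is a run of letters in a 300-base window, and nothing about a factor follows from its presence or absence there.

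For the member with the largest rise and the one with the largest fall, the 5 tested genes with the most similar log2 CPM profile over the 6 libraries were listed by the root mean square difference from it, each profile centred on its control mean. Nearest to ALDH3A1 were MT2A, a metallothionein, DNAH2, an axonemal dynein chain, SEC16B, TGM5, an epidermal transglutaminase, and GFPT2, of the hexosamine route, at differences of 0.119 to 0.180. MT2A was at 119.5 CPM with PM2.5 and 41.4 CPM in control. Nearest to ALDH18A1 were TPX2, a spindle protein, SPRTN, a protease of DNA-protein crosslinks, CSAG3, GJC1, a connexin, and BTF3, at differences of 0.0105 to 0.0183. With 6 libraries, many genes of similar size of change have like profiles.

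The other 9 aldehyde dehydrogenases in the table show what the 10 were drawn from. Outside ALDH1A, 5 of 6 did not pass and 1 did. ALDH7A1, ALDH4A1, ALDH9A1 and ALDH1B1 had log2 changes of 0.10, 0.04, 0.03 and -0.10 (edgeR adjusted p = 0.0879, 0.883, 0.638 and 0.242), and ALDH8A1 had -0.71 at under 1 CPM in every library (adjusted p = 0.146). ALDH7A1 passed under 4 of the 15 alternatives, and ALDH1B1 passed once, without control replicate 3 (adjusted p = 0.0304). ALDH16A1, a family member without the catalytic cysteine in mammals, was at 23.5 ± 1.58 CPM with PM2.5 and 26.9 ± 0.559 CPM in control, a log2 change of -0.20 (SE 0.0638, adjusted p = 0.0357), but it lost its call under 8 of 15 alternatives, including the omission of PM2.5 replicate 1 or 2 or of any control replicate (adjusted p up to 0.160). Of the ALDH1A retinaldehyde dehydrogenases, ALDH1A3 was by far the most abundant aldehyde dehydrogenase, at 3756 ± 313 CPM with PM2.5 and 2625 ± 63.2 CPM in control (log2 change 0.52, SE 0.0645, adjusted p = 0.000608). ALDH1A1 was at 1.27 ± 0.180 CPM with PM2.5 and 3.17 ± 0.345 CPM in control (log2 change -1.30, SE 0.147, adjusted p = 0.000398), and ALDH1A2 was at under 1 CPM in every library, with a log2 change of -0.57 (adjusted p = 0.289). The median over the 9 was -0.10. Without ALDH1A3, they summed to 318.8 to 324.1 CPM with PM2.5 and 317.0 to 318.4 CPM in control.

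**Figure D3:**
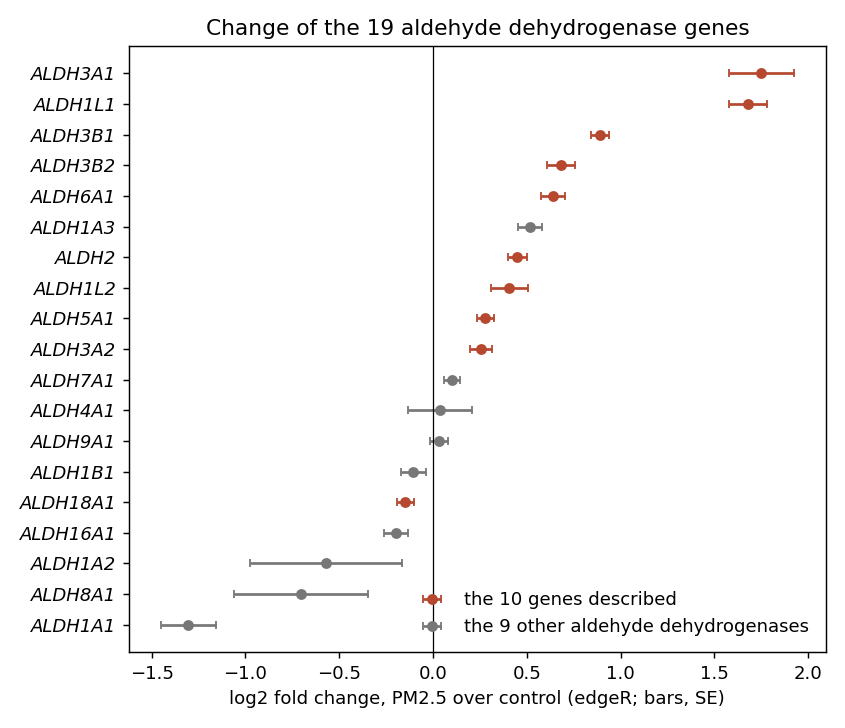
Log2 change of PM2.5 over control for the 19 aldehyde dehydrogenase genes of the table, with the SE of the edgeR fit as bars, for the 10 genes described (red) and the other 9 (grey). The 10 genes run from 1.75 for ALDH3A1 to -0.15 for ALDH18A1, and the other 9 from 0.52 for ALDH1A3 to -1.30 for ALDH1A1.

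**Figure D4:**
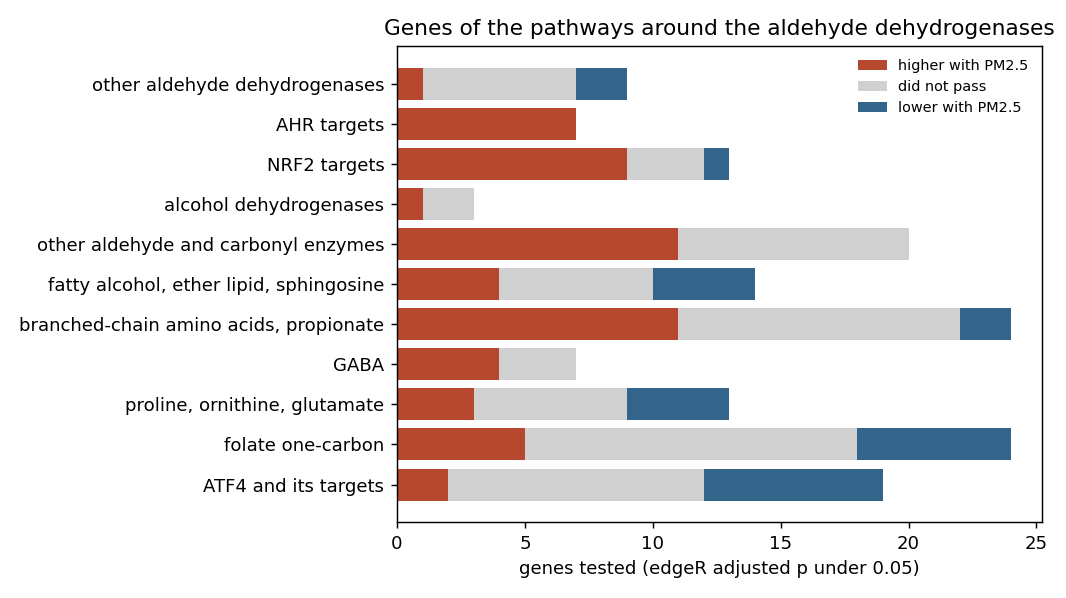
Number of tested genes in each list that were higher, did not pass or were lower with PM2.5 (edgeR adjusted p under 0.05). All 7 AHR targets and 9 of 13 NRF2 targets were higher, while folate genes divided into 5 higher, 13 not passing and 6 lower. NQO1 is counted in both the AHR and the NRF2 list. Over all tested genes, 21.7% were higher and 22.0% lower.

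The line was checked against markers of its own and of other skin cell types. The 13 sebocyte and sebaceous duct markers summed to 7427 to 8482 CPM with PM2.5 and 8924 to 9024 CPM in control, and 5 were higher and 5 were lower, among them PPARG, the regulator of lipid-storing cells, at a log2 change of 0.49 (adjusted p = 0.000822) and KRT7, a simple-epithelium keratin, at -0.45 (adjusted p = 0.00617). The 6 keratinocyte markers summed to 53.0 to 73.4 CPM with PM2.5 and 126.5 to 151.5 CPM in control, with 1 higher, 2 lower and KRT2 without reads. IVL, involucrin, gave most of the sum and had a log2 change of -1.50 (adjusted p = 0.000200), KRT10 had -0.36 (adjusted p = 0.00664), and FLG, filaggrin, had 0.97 (adjusted p = 0.0127). The 7 fibroblast markers summed to 55.1 to 59.1 CPM with PM2.5 and 46.1 to 50.9 CPM in control, with 2 higher, 1 lower and COL1A2, COL3A1 and DCN at 0 to 3 reads per library. COL1A1 gave most of that sum, at 52.6 ± 2.24 CPM with PM2.5 and 43.6 ± 2.48 CPM in control (adjusted p = 0.00778). PDGFRB had a log2 change of 0.67 (adjusted p = 0.0116) and LUM had -1.25 (adjusted p = 0.000268). The 5 melanocyte markers summed to 12.3 to 15.9 CPM with PM2.5 and 12.6 to 13.7 CPM in control, with TYR and MLANA at 0 in all libraries. PMEL gave most of that sum, at 14.1 ± 1.80 CPM with PM2.5 and 13.1 ± 0.578 CPM in control (adjusted p = 0.449). The 7 endothelial and immune markers summed to 194.9 to 196.7 CPM with PM2.5 and 253.3 to 271.2 CPM in control, with 1 higher, 2 lower and CD3E at 0. Most of that sum came from CDH5, a cadherin of endothelium, at 84.1 ± 5.50 CPM with PM2.5 and 190.6 ± 12.3 CPM in control (adjusted p = 3.29e-05), and CD68, a lysosomal protein abundant in macrophages, at 104.4 ± 6.11 CPM with PM2.5 and 62.9 ± 2.91 CPM in control (adjusted p = 0.000119), which changed in opposite directions. These sums are in the same libraries as the aldehyde dehydrogenase changes, and their part in those changes was not tested.

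Some members overlap or adjoin other genes, and whether the counting used strand is not given in the sources used here. Transcripts of ALDH6A1 shared 8.40% of their 50-base words with BBOF1 on the opposite strand, those of ALDH5A1 3.61% with GPLD1 and those of ALDH1L2 1.29% with C12orf45. Those of ALDH3A1, the member with the largest change, shared 2.34% with AC005722.3, also on the opposite strand. BBOF1, GPLD1 and C12orf45 had log2 changes of -0.07, -0.10 and -0.09 and did not pass (adjusted p = 0.586, 0.485 and 0.547). C12orf45 had 281, 283 and 269 reads with PM2.5 and 254, 300 and 336 reads in control, against 215, 286 and 215 reads with PM2.5 and 177, 166 and 194 reads in control for ALDH1L2. ALDH1L1-AS2, antisense to ALDH1L1, was too low to be tested, with 4, 3 and 3 reads with PM2.5 and 0 reads in each control library. ALDH2 shared 9.71% of its words with some other gene, 6.60% with AC002996.1 on its own strand, and ALDH18A1 shared none.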

How the data were processed

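The deposited table held whole-number read counts per gene for 6 libraries, 3 PM2.5-treated and 3 control. RNA was made into stranded libraries. Per the submitters' processing notes, the hg19 build, HISAT2 2.0.5, StringTie 1.3.3b, Trimmomatic 0.32 and DESeq2 were used, in roles that are not stated, and neither the counting settings nor the use of strand is given in these sources. The counts as deposited by the authors were not normalized.

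Genes were kept by filterByExpr (minimum count 10, minimum total 15), scaled by TMM and tested with edgeR 4.0.16 (quasi-likelihood, PM2.5 against control, no other term) in R 4.3.3, with Benjamini-Hochberg adjustment over all 16049 genes tested. The fit was tested on simulated counts. CPM used the TMM library sizes, and RPKM divided CPM by the median length of the GENCODE v29 transcripts that the table pairs with a gene. With 3 against 3 libraries an exact permutation test cannot go below 0.1, so none was run. Groups came from the sample titles. Alternatives were DESeq2 1.42.0, limma-voom (limma 3.58.1), other scalings and filters, a legacy edgeR fit, a replicate block and the omission of each library.

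The 10 members and the 16 gene lists were chosen with earlier results of these data known. Named were all members, all tested other aldehyde dehydrogenases and, of each further pathway list, up to 3 genes with the smallest adjusted p in its main direction and up to 2 in the other, plus the 5 nearest profiles of 2 members (mean of at least 1 CPM, pseudocount 0.5). Some list genes chosen this way were left out of the text. FAR1, FAR2, ADH5, HMOX1, NQO1, AOX1, GAD1, ABAT, HIBADH, HIBCH, ACAD8, ECHS1, MCEE, MUT, BCAT2, PYCR1 and ALDH1L1-AS2 were named after their values were seen. So were the genes overlapping members and the cell type markers. RefSeq and GENCODE supplied the sequences.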

Additional observations from a re-analysis of the deposited data

How the results depend on the processing

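The 9 aldehyde dehydrogenases that were higher with PM2.5 were called higher under all 15 alternatives tried. ALDH18A1 was called lower under 8. The number of members called lower was 0 with library size scaling and 0 with upper-quartile scaling, and it was 0 to 1 when 1 library was left out, with 0 without PM2.5 replicate 1 or 3 or any control replicate. The cause was not tested, although leaving out a library leaves fewer samples. Over all genes, 3476 were higher and 3523 lower, and higher genes made up 49.7% of the calls, against 65.2% (4770 higher and 2546 lower) with library size scaling and 56.9% with upper-quartile scaling (4008 and 3036). Library size scaling moved the median log2 change of all genes by 0.08. Omitting 1 library gave 2712 to 3305 higher and 2613 to 3448 lower genes.

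Libraries with the same replicate number share only that number. The correlations of their deviations from the group means were -0.0301, 0.0897 and 0.11. With the replicate block 3573 genes were higher and 3658 lower, and the 10 members stayed at 9 higher and 1 lower.

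By number of reads, the least certain levels are those of ALDH3A1, ALDH1L1 and ALDH1L2, with 61 to 664 reads per library. The control libraries of ALDH3A1 set the precision of its change.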
